A study of Mus musculus with 3 samples.

Results

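The 35 cell cycle and DNA replication genes described here are a fixed list of proliferation genes, matched by gene symbol in the deposited tables, and all 35 were found among 55536 annotated genes, of which 22028 are protein-coding. The list holds 16 genes of DNA replication and the G1/S transition and 19 genes of mitosis and the G2/M transition. The RNA came from the chromatin fraction of bone-marrow-derived macrophages of strain C57BL/6J, primary phagocytes grown from mouse marrow, treated with Lipid A at 100 ng/ml for 20 min. Lipid A is the membrane anchor of bacterial lipopolysaccharide and a ligand of the receptor TLR4. Sex and age were not collected. The single group has 3 libraries, biological replicates 1, 2 and 3, made from 1 µg, 250 ng and 500 ng of RNA after ribosomal RNA depletion. No untreated group was analysed here, so the values are levels after Lipid A and not responses to it. The labels give the libraries separate biosamples but 1 donor entry, and whether they came from separate animals is not stated, so any p-value measures only the spread between these samples.

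As background, a cell entering the cycle activates the E2F factors and cyclin E kinase and licenses its replication origins by loading the Mcm helicase. The E2F factors switch on the replication machinery, and the mitotic kinases, spindle motors and kinetochore are built later. E2F factors act through E2F sites in promoters of replication genes. Mitosis genes are known for a cell cycle homology region, the CHR element, read by the DREAM complex in resting cells and by the B-Myb and FoxM1 complexes in cycling cells, often beside CCAAT boxes bound by NF-Y. RNA on chromatin is largely nascent or unreleased transcript, so it reports on transcription more directly than whole-cell mRNA. Growth of marrow cells into macrophages passes through divisions driven by the growth factor M-CSF, which slow as the cells mature.

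Levels below are in coding TPM, which is the deposited TPM (transcript abundance corrected for length and library size) rescaled in each library so that the protein-coding genes sum to 1000000. The rescaling was used because small nucleolar RNAs took 40.4% to 55.7% of the deposited TPM and coding genes 15.8% to 24.7%, both unequally between libraries. Libraries held 12439931 to 16317439 expected counts in all and 4163 to 5324 counts over the 35 genes, where a gene without a count could still have had 3 counts, or 0.184 to 0.241 CPM, by counting error only. The median of 10 macrophage markers was 269 ± 44.0 coding TPM (SD, n = 3), and all 10 were at or above 1 coding TPM in each library.

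Some promoters are printed as examples of both classes. For replication they are those of the 2 most highly expressed genes with an E2F site. For mitosis they are those of the 2 most highly expressed genes with a CHR element and a CCAAT box. Cdk1 was added as the only mitosis gene found with all 3 elements, which the printed Mcm7 promoter also holds. Each printed promoter is the RefSeq window of 250 bases before to 50 bases after the gene start on build GRCm38.p6. It is printed 5′ to 3′ on the gene's strand. Capitals mark the motif letters found on either strand, namely E2F sites (TTTCCCGC, TTTGGCGC, TTTCGCGC or TTTGCCGC), CHR elements (TTTGAA or TTCGAA) and CCAAT boxes (CCAAT). Motif matches overlap by 1 base in Mcm7 and by 4 bases in Mcm6. The windows are Mcm7 at chr5:138171834-138172133, Mcm6 at chr1:128359656-128359955, Mki67 at chr7:135716330-135716629, Top2a at chr11:99024140-99024439 and Cdk1 at chr10:69352863-69353162, all on the minus strand.
Mcm7: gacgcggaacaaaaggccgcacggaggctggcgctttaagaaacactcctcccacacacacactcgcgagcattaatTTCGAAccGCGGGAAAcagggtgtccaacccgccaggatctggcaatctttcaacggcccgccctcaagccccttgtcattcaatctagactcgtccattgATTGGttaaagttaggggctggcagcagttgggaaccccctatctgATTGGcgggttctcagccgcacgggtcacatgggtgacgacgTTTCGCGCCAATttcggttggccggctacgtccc
Mcm6: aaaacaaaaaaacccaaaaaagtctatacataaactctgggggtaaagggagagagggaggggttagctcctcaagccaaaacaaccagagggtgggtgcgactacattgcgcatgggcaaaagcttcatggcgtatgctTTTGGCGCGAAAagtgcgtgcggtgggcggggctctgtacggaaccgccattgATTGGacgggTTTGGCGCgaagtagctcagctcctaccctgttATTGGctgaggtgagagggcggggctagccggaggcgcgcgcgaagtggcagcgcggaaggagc
Mki67: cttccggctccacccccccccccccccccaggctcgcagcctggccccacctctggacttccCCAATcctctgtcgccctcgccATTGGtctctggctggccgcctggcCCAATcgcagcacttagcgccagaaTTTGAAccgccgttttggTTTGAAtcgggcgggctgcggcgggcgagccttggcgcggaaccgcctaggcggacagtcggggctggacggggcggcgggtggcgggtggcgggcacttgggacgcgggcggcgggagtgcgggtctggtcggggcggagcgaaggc
Top2a: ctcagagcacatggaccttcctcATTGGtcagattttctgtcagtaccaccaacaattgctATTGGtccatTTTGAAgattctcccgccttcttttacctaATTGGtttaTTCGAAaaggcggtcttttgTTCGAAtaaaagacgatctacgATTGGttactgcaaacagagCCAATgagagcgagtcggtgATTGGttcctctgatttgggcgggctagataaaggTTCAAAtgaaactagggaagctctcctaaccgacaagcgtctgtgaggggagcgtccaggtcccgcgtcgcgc
Cdk1: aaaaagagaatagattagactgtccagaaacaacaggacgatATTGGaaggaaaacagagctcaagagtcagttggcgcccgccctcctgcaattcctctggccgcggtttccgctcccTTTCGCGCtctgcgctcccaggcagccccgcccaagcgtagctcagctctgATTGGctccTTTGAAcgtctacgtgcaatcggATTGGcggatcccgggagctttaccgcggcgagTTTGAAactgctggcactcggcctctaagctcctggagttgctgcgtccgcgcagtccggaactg

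E2F sites were found in 6 of 14 replication promoters (42.9%), in 1 of 15 mitosis promoters (6.67%) and in 2.26% of all 32851 promoters. The CHR element was found in 2 of 14 replication promoters (14.3%), in 11 of 15 mitosis promoters (73.3%) and in 19.2% of all promoters. CCAAT boxes were found in 64.3% of replication promoters, 86.7% of mitosis promoters and 37.4% of all promoters. The counts are descriptions of 29 promoters of 28 members, and Ccna2, Ccne2, Aurkb, Mcm4, Gmnn, Tpx2 and Foxm1 had no promoter in the table. Mcm3, Mcm5, Mcm6, Mcm7, Cdc6 and Cdt1 held the E2F sites on the replication side, and all 6 belong to origin licensing. Mcm2, also of origin licensing, had none, nor did Ccne1, E2f1, Pcna, Rrm1, Rrm2 and Tyms. Only the exact letters given above were searched, so E2F sites with other letters were not counted. Mcm7 has a further promoter in the table, which held a CCAAT box alone. In 10 of the 11 mitosis promoters with a CHR element the nearest match began within 50 bases of the gene start. Mki67 was the exception, with matches at -116 and -98. The median distance of the nearest match over all 11 was 19 bases. Among genes of the same pathways outside the list, E2F sites were found in 26.8% of 41 promoters of other replication genes and in 8.89% of 45 promoters of other mitosis genes. CHR elements were found in 19.5% of the other replication and 73.3% of the other mitosis promoters, and CCAAT boxes in 48.8% and 75.6%. Sites of this kind do not show which factors were bound.

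**Figure D1:**
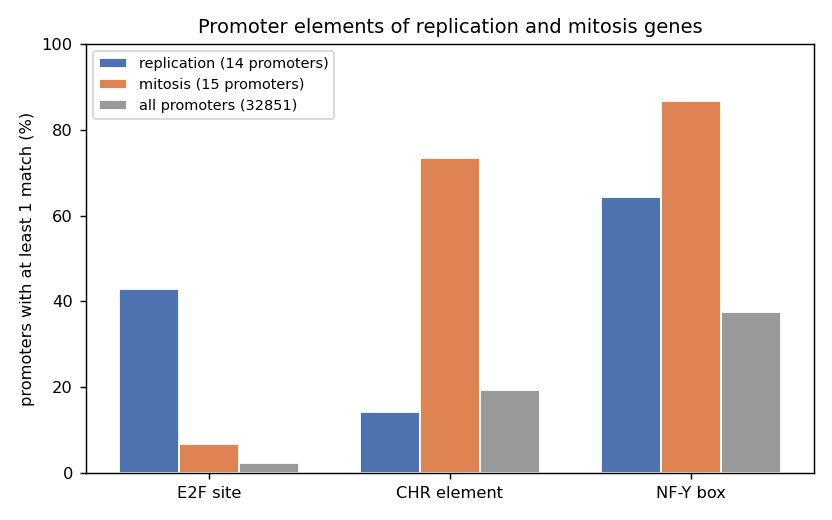
Share of 300-base promoters with at least 1 match to each element, for replication genes (blue), mitosis genes (orange) and all promoters of the RefSeq table (grey). The E2F site stands at 42.9% in replication promoters against 6.67% in mitosis promoters, and the CHR element at 14.3% against 73.3%.

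Nearly all of the 35 genes gave RNA on chromatin, at levels somewhat above the median of all coding genes, undetected ones included. Their median was 8.33 ± 1.15 coding TPM, beside 2.06 ± 0.287 coding TPM over all coding genes (SD, n = 3). Of the 22028 coding genes 6893 were at 0 in every library, which lowers that median and raises the percentiles below. In the kallisto-layout tables, a second deposited quantification, the medians were 10.8 ± 2.92 and 5.25 ± 0.704 coding TPM (SD, n = 3 each). In every library 34 of the 35 were at or above 1 coding TPM, as were 51.1% of coding genes, and Cdc20 was the exception. The members stood at percentiles 46.1 to 90.5 of coding genes, with a median percentile of 59.2. Among the 15135 coding genes above 0 in at least 1 library, the median member stood below the middle. In every library 31 members were above the median of all coding genes, and the share of coding genes above it in every library was not counted. Together they made up 0.0420%, 0.0581% and 0.0456% of coding TPM in replicates 1, 2 and 3. Pcna and Mki67 alone held 33.7% ± 6.75 of that sum (SD, n = 3). Depth limits the low end, since 16 members had fewer than 50 counts in at least 1 library. In bulk RNA a small fraction of cycling cells and a low level in every cell cannot be told apart.

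**Figure D2:**
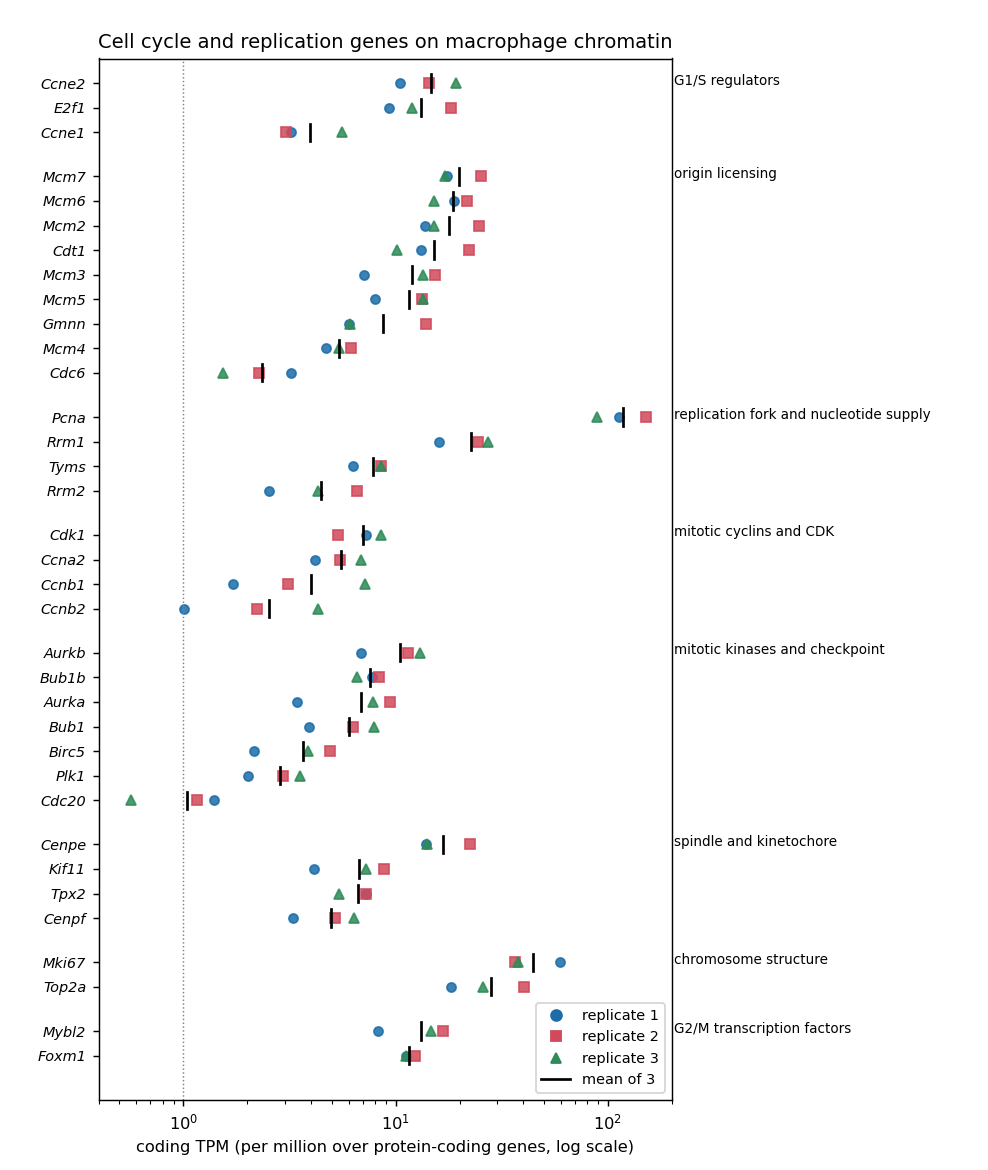
Level of each of the 35 genes in replicates 1 (circles), 2 (squares) and 3 (triangles) in coding TPM on a log axis, grouped by role, with the mean as a black bar and 1 coding TPM as a dotted line. Pcna lies highest at 89.2 to 151 coding TPM and Cdc20 lowest at 0.567 to 1.39 coding TPM.

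Among G1/S regulators, cyclin E2 and E2f1 were higher than cyclin E1. Ccne2, which encodes an activator of Cdk2, had 10.5, 14.4 and 19.1 coding TPM in replicates 1, 2 and 3. The transcription factor gene E2f1 had 9.30, 18.2 and 11.9 coding TPM. Ccne1, the other cyclin E gene, had 3.23, 3.05 and 5.59 coding TPM, below both genes in every library. It rested on 12 to 14 counts per library, and the kallisto-layout tables put it 2.52-fold higher, at 9.96 ± 3.47 coding TPM (SD, n = 3).

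All 9 origin licensing genes were detected, and the subunits of the Mcm helicase differed in level. Mcm7 had 17.5, 25.3 and 17.0 coding TPM, Mcm6 18.8, 21.6 and 15.2, and Mcm2 13.8, 24.8 and 15.2 in replicates 1, 2 and 3. Mcm3 averaged 11.99 ± 4.35, Mcm5 11.6 ± 3.11 and Mcm4 5.42 ± 0.734 coding TPM (SD, n = 3 each). Mcm4 was the lowest subunit in every library, and its 4.68 to 6.15 coding TPM did not overlap the range of any other subunit. Cdt1, which loads the helicase with Cdc6, had 13.2, 22.2 and 10.2 coding TPM, and its inhibitor geminin (Gmnn) had 6.01, 13.9 and 6.11 coding TPM. Cdc6 was on average the lowest replication gene, at 3.23, 2.27 and 1.54 coding TPM, and unlike the other replication genes it was highest in replicate 1.

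The genes of the replication fork and of nucleotide supply spanned the widest range. Pcna, the sliding clamp of the DNA polymerases and also a part of DNA repair, had 113, 151 and 89.2 coding TPM in replicates 1, 2 and 3, the highest level of the 35 genes in each library. The gene lies at chr2:132249162-132253314 on the minus strand of GRCm38. Rrm1, the large subunit of ribonucleotide reductase, had 15.9, 24.5 and 27.4 coding TPM. Rrm2, the small subunit, which in cycling cells is made mainly in S phase, had 2.53, 6.59 and 4.29 coding TPM, below Rrm1 in every library. Tyms, which makes thymidylate, had 6.33, 8.53 and 8.54 coding TPM.

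Mki67 and Top2a, genes for chromosome-coating and chromosome-untangling proteins of dividing cells, led the mitosis class and went opposite ways between libraries. Mki67 (GRCm38 chr7:135689784-135716361, minus strand) had 59.4, 36.3 and 37.6 coding TPM in replicates 1, 2 and 3, from 2575, 1322 and 1267 expected counts. Top2a had 18.2, 40.4 and 25.7 coding TPM from 216, 382 and 248 counts. Replicate 1 was thus the highest library for Mki67 and the lowest for Top2a. The longest exon of Mki67 covers 6836 of its 10061 exonic bases, and the gene had the most counts of the 35 in every library. Gm45240, an unconfirmed annotation on the opposite strand within Mki67, had 122, 23 and 42 counts, also highest in replicate 1. No source used here says whether counting used strand, so reads of that pair cannot be told apart.

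The mitotic cyclins were low, and the level of their kinase depended on the table. Cdk1 had 7.21, 5.37 and 8.54 coding TPM in replicates 1, 2 and 3 in the gene tables, but averaged 27.2 ± 5.60 coding TPM in the kallisto-layout tables (SD, n = 3). Ccna2, cyclin A2, had 4.18, 5.49 and 6.84 coding TPM. The B cyclins had the largest ratios of highest to lowest library in the gene tables, on few counts. Ccnb1 had 1.71, 3.10 and 7.21 coding TPM from 10, 16 and 26 counts, a 4.22-fold range. Ccnb2 had 1.01, 2.22 and 4.33 coding TPM from 6, 11 and 19 counts, a 4.28-fold range. Both were lowest in replicate 1 and highest in replicate 3. In the kallisto-layout tables Ccnb2 had a narrower range, with 2.79, 3.02 and 3.53 coding TPM. A transcribed pseudogene copy, Ccnb2-ps, had 16, 23 and 25 counts, more than Ccnb2 itself in each library, so the level of Ccnb2 is uncertain.

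Among mitotic kinases and checkpoint genes, Aurkb, the kinase of the chromosomal passenger complex, was highest on average in the gene tables, at 6.83, 11.5 and 13.0 coding TPM in replicates 1, 2 and 3. The spindle checkpoint genes Bub1b and Bub1 averaged 7.54 ± 0.870 and 6.04 ± 2.00 coding TPM, and Aurka, the centrosomal kinase, averaged 6.86 ± 3.08 coding TPM (SD, n = 3 each). Birc5, survivin, averaged 3.66 ± 1.40 coding TPM in the gene tables and 15.5 ± 1.18 in the kallisto-layout tables, where it was above the 10.7 ± 3.72 of Aurkb (SD, n = 3 each). Plk1, a kinase of mitotic entry and exit, averaged 2.84 ± 0.773 coding TPM (SD, n = 3). Cdc20, which activates the anaphase-promoting complex, had 1.39, 1.16 and 0.567 coding TPM from 3, 7 and 3 counts, at the limit of detection. The motor gene Cenpe led the spindle genes with 13.9, 22.4 and 14.1 coding TPM. Kif11, a spindle motor, averaged 6.74 ± 2.40, Tpx2, the activator of Aurora A, 6.65 ± 1.06, and Cenpf, a kinetochore protein, 4.97 ± 1.57 coding TPM (SD, n = 3 each). The G2/M transcription factor genes Mybl2 (B-Myb) and Foxm1 averaged 13.2 ± 4.41 and 11.6 ± 0.663 coding TPM (SD, n = 3 each), above most of the mitosis genes they are known to drive.

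The median replication gene was above the median mitosis gene in each library. The medians were 8.64 against 4.18 coding TPM in replicate 1, 14.9 against 7.26 in replicate 2, and 12.7 against 7.29 in replicate 3. On the scale of log2(coding TPM + 0.1) the difference, replication minus mitosis, was 1.03, 1.03 and 0.79, with a mean of 0.95 ± 0.14 (SD, n = 3), or 1.93-fold. Every library had the same sign, and an exact two-sided sign-flip test over the libraries gave p = 0.25, the smallest p that 3 libraries allow. Both classes overlapped widely in range. Of 16 replication genes 12 were above the mitosis median, and of 19 mitosis genes 4 were above the replication median. The kallisto-layout tables gave 0.83, 0.81 and 0.83 on the same log2 scale. Among members with at least 50 counts in every library, 12 replication and 7 mitosis genes, the mean difference was 0.37 ± 0.30 (SD, n = 3), with 0.07 in replicate 1, and with posterior mean TPM it was 0.58 ± 0.15 (SD, n = 3). Without Mki67 and Pcna it was 0.90 ± 0.19 (SD, n = 3).

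**Figure D3:**
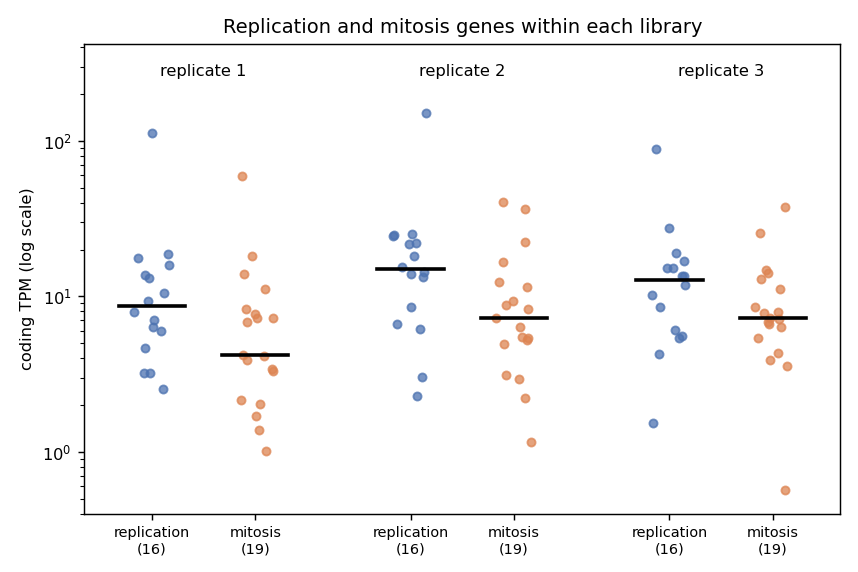
Coding TPM on a log axis of the 16 replication genes (blue) and 19 mitosis genes (orange) in each of the 3 libraries, 1 point per gene, with the median as a black bar. The replication median lies above the mitosis median in every library, at 8.64 against 4.18 coding TPM in replicate 1, while the points of both classes overlap.

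Genes of the same pathways outside the list showed a difference of the same direction. The 39 other replication genes had a median of 15.1 ± 1.87 coding TPM and the 45 other mitosis genes one of 7.74 ± 2.38 coding TPM (SD, n = 3 each). Their difference on the log2 scale was 1.27, 1.06 and 0.66 in replicates 1, 2 and 3, with a mean of 1.00 ± 0.31 (SD, n = 3; exact two-sided sign-flip p = 0.25, the smallest possible). Among the other replication genes 36 of 39 were at or above 1 coding TPM in every library. Rfc2, a clamp loader subunit, averaged 210.3 ± 10.4, Orc3, an origin recognition subunit, 209 ± 35.1, and Pold3, a polymerase delta subunit, 182 ± 12.3 coding TPM, while the flap nuclease gene Fen1 was lowest at 0.536 ± 0.928 (SD, n = 3 each). Among the other mitosis genes 40 of 45 were detected by that limit. The centromeric histone gene Cenpa averaged 397 ± 140, the passenger complex gene Incenp 177 ± 33.2 and the condensin gene Smc4 163 ± 17.2 coding TPM, while the ubiquitin-conjugating enzyme gene Ube2c was lowest at 0.515 ± 0.227 (SD, n = 3 each). The value of Ube2c in the kallisto-layout tables was 19.2 ± 4.65 coding TPM (SD, n = 3).

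Genes of G1 control covered a wide range of levels. Cdkn1a, which encodes the CDK inhibitor p21, had 1135, 542 and 834 coding TPM in replicates 1, 2 and 3. Cdkn1b, encoding p27, averaged 45.5 ± 25.5 and Cdkn1c 13.0 ± 3.13 coding TPM, and Cdkn2a was lowest at 0.359 ± 0.325 (SD, n = 3 each). The 7 CDK inhibitor genes had a median of 4.52 ± 2.54 coding TPM (SD, n = 3), with 5 at or above 1 in every library. The 23 genes of G1 cyclins, their kinases, E2F partners and the RB and DREAM repressors had a median of 26.0 ± 5.68 coding TPM (SD, n = 3), with 21 at or above 1 in every library. Rb1, the retinoblastoma repressor of E2F, averaged 319 ± 20.0, Cdk6 194 ± 23.8 and Rbl2, the p130 protein of DREAM, 90.8 ± 2.53 coding TPM (SD, n = 3 each). Ccnd2 was lowest of these at 0.946 ± 0.0535 coding TPM, but averaged 12.01 ± 4.08 in the kallisto-layout tables (SD, n = 3 each).

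Across libraries the proliferation genes shared a pattern, with most lowest in replicate 1. By coding TPM 24 of 35 were lowest there, beside 40.2% of the 11263 coding genes at or above 1 in every library, and 18 of 35 were highest in replicate 2, beside 32.3% of those coding genes. Mki67, Tpx2, Cdc6 and Cdc20 were highest in replicate 1 by the gene tables, and Mki67 alone by the kallisto-layout tables. The members' median ratio of the highest to the lowest library was 1.83. On CPM with TMM factors, which balance libraries over all genes, 24 of 32 members with enough counts were lowest in replicate 1, beside 30.4% of coding genes. On that scale 30 of 32 members were lower in replicate 1 than in replicate 2, beside 54.6% of coding genes, with a median log2 difference of -0.74, beside -0.04 over coding genes. Replicate 3 was lower than replicate 2 in 23 of 32 members, beside 51.7% of coding genes, with a median log2 difference of -0.44, beside -0.01. Replicate 1 was lower than replicate 3 in 25 of 32 members, beside 50.8% of coding genes, with a median log2 difference of -0.23, beside -0.01. The largest of these shifts was thus between replicates 1 and 2, and both pairs with replicate 2 had a larger median shift than the pair without it. Cdkn1a went the other way, with its highest value in replicate 1 and its lowest in replicate 2, but its slope on starting RNA, described next, of 0.58 per doubling had an adjusted p of 0.264 in edgeR. The macrophage markers Lyz2 and Spi1 had the same order of libraries as Cdkn1a, and the other listed macrophage markers did not. Lyz2 had 1174, 575 and 902 coding TPM and Spi1 167, 70.4 and 126 in replicates 1, 2 and 3. Their slopes were 0.52 and 0.59, with adjusted p of 0.360 and 0.165 in edgeR.

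**Figure D4:**
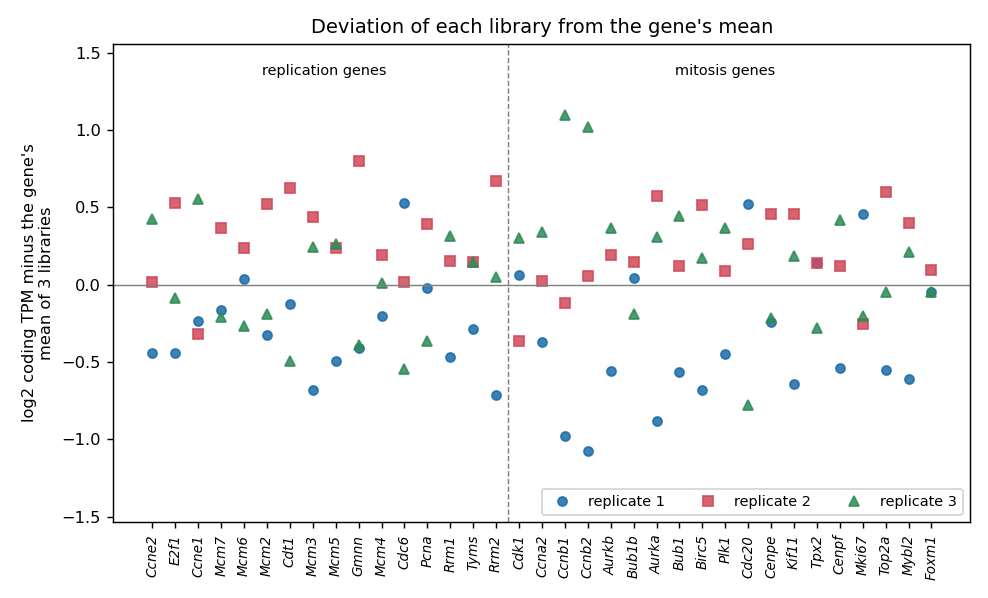
Log2 coding TPM of each gene in replicates 1 (circles), 2 (squares) and 3 (triangles) minus the gene's mean over the 3 libraries, with replication genes left of the dashed line and mitosis genes right of it. Replicate 1 is the lowest library for 24 of the 35 genes, and Mki67 is among the 4 genes with replicate 1 on top.

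A slope on log2 starting RNA was fitted to all 15065 genes with enough counts with edgeR's quasi-likelihood test. At an adjusted p (Benjamini-Hochberg) below 0.05 it called 0 of 34 members and 88 of all genes (0.584%), and at an unadjusted p below 0.05 it called 8 members and 1017 genes. DESeq2 called 0 of 24 members with an adjusted p. Slopes were negative in 32 of 34 members, with a median of -0.39 on the log2 scale per doubling of RNA, beside -0.03 over coding genes. Mki67 (0.36) and Ccne2 (0.03) had the positive slopes. The share of negative slopes over coding genes was not counted, but their median below 0 means that more were negative than positive. Cenpf had the lowest adjusted p of the members in edgeR's quasi-likelihood test, 0.137, with a slope of -0.94. Cenpf passed the threshold in 2 of the 4 alternative fits, with an adjusted p of 0.00626 in edgeR with no filter on low counts and 0.0274 in edgeR among protein-coding genes alone. The other mitosis genes had negative slopes in 34 of 41 (median -0.34), the other replication genes in 26 of 37 (median -0.14), and the macrophage markers in 4 of 10 (median 0.03). With 1 library per amount, starting RNA and library cannot be told apart. The median coefficient of variation beyond counting error in edgeR was 25.3% over 32 members and 19.5% over 10870 coding genes, with no test of the difference. The 2 sets were not matched for abundance, on which edgeR's estimate depends. It was 22.5% over members and 21.04% over coding genes without replicate 1, 20.9% and 17.8% without replicate 2, and 25.9% and 20.7% without replicate 3.

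Markers of other cell types were low, and the summed level of fibroblast markers was also lowest in replicate 1 and highest in replicate 2 in the gene tables. None of 7 fibroblast markers was at or above 1 coding TPM in every library. Their summed level was 0.127, 6.43 and 4.45 coding TPM in replicates 1, 2 and 3, with Col1a1 at 0, 1.99 and 1.58 and Lum at 0 in each, while Col1a1 averaged 4.80 ± 0.598 coding TPM in the kallisto-layout tables (SD, n = 3). The median fibroblast marker in the kallisto-layout tables had 0.375, 1.49 and 1.67 coding TPM, highest in replicate 3. Summed levels were 6.90 to 9.72 coding TPM over 10 neutrophil markers, of which Ngp alone was at or above 1 in every library and Ctsg and Ms4a3 were at 0 throughout. The 8 erythroid markers in the tables summed to 5.63 to 8.87 coding TPM, with Epor alone past that limit and Hbb-bt at 0. The 8 stem and progenitor markers summed to 15.9 to 20.7 coding TPM, mostly from Meis1 (15.3 ± 1.97; SD, n = 3), with Kit also past the limit in every library and Gata2 and Hoxa9 at 0. The 9 protein-coding B and T cell markers summed to 1.05 to 2.02 coding TPM, and Cd3d, Cd3e and Cd3g were at 0, but the kallisto-layout tables gave 3.42 ± 1.40 coding TPM for Cd3g and 8.64 ± 0.505 for Cd8a (SD, n = 3 each). The part of such cells in the library pattern was not tested.

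A large share of the TPM of these genes, as of coding genes at large, was assigned to isoforms that do not encode protein. Of the 35 genes 28 have an isoform annotated as retained intron or processed transcript, and Mki67, E2f1, Gmnn, Mcm4, Birc5, Plk1 and Ccnb2 have none. Over the 27 of them at or above 1 coding TPM in every library, these isoforms held a median of 46.3% ± 2.76 of the gene's TPM, and 46.9% ± 1.56 over 8769 coding genes chosen alike (SD, n = 3 each). In the kallisto-layout tables the median was 46.9% ± 3.48 over the members and 53.0% ± 1.53 over coding genes (SD, n = 3 each), lower for the members in each library. By class the median was 42.0% ± 3.09 in replication genes and 52.8% ± 5.97 in mitosis genes (SD, n = 3 each). Pcna had 68.8%, 62.8% and 69.9% of its TPM in such isoforms in replicates 1, 2 and 3, and the rest in its coding isoform Pcna-201. Aurkb averaged 75.4% ± 5.95, Cdt1 73.9% ± 13.5, Mybl2 72.3% ± 10.6 and Ccnb1 69.6% ± 8.32, while Cenpf averaged 11.0% ± 10.3 and Cdc6 7.84% ± 13.6 (SD, n = 3 each). A mean share over 50% was found in 13 members, in 11 by the kallisto-layout tables, and in 9 by both. No such count was made over coding genes. Their medians of 46.9% and 53.0% lie near the same limit, so these counts do not set the members apart. As a share of expected counts rather than TPM, the members' median was 17.6% ± 3.09 (SD, n = 3), with no value over coding genes to set beside it.

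**Figure D5:**
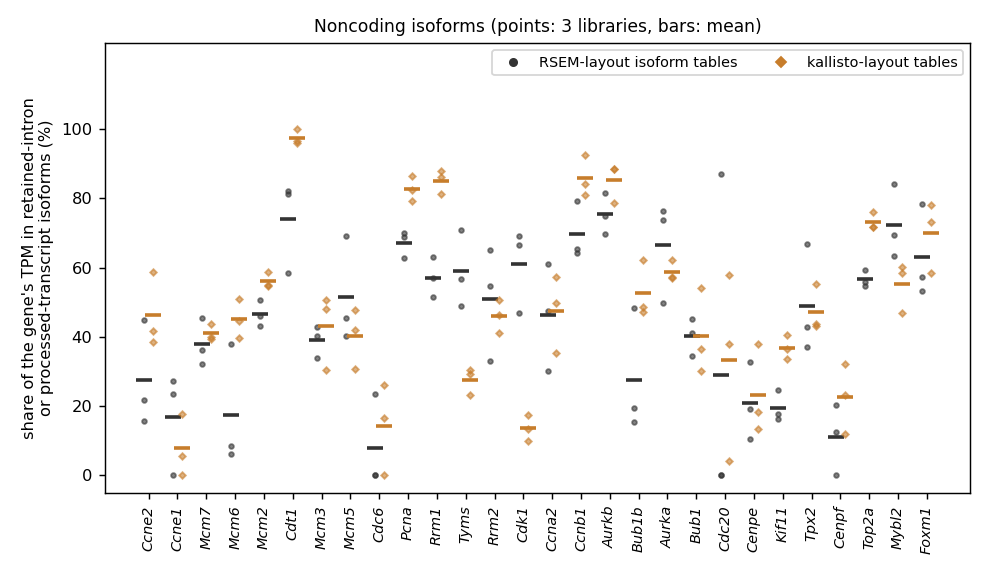
Share of each gene's TPM in isoforms annotated as retained intron or processed transcript, for the 28 genes that have one, in the RSEM-layout tables (dark circles) and the kallisto-layout tables (orange diamonds), with points for the 3 libraries and bars for their mean. Pcna, Aurkb, Cdt1 and Ccnb1 lie above 50% in both, while Cdk1 and Tyms differ between the table sets.

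The deposited quantifications agreed within 2-fold for 30 of 35 members, and 5 were over 2-fold higher in the kallisto-layout tables. These were Birc5 (4.23-fold), Cdk1 (3.85-fold), Tyms (2.69-fold), Ccne1 (2.52-fold) and Rrm1 (2.20-fold). Agreement within 2-fold was not counted over coding genes, so the count does not set the members apart. The median coding gene had 2.06 coding TPM in the gene tables and 5.25 in the kallisto-layout tables. The members' median ratio of kallisto-layout to gene tables was 1.03. Isoform rows show where the deposited quantifications parted. Birc5-202, the long coding isoform, had 392, 393 and 384 estimated counts in the kallisto-layout tables, against 19.6, 28.2 and 41.0 expected counts in the RSEM-layout tables. Cdk1-207, a short coding isoform, had 89.9, 74.2 and 90.2 estimated counts against 0, 0 and 2.13 expected counts. Tyms-201, a coding isoform, had 359, 216 and 197 estimated counts, and 0 expected counts in each library. Ranks were alike, with a Spearman correlation of 0.84 between table sets over the 35 genes, which share libraries and are not independent. Levels of these 5 genes, 3 of them replication genes, therefore depend on the table.

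Overlapping genes limit a few values. Of the 35 genes 14 overlap another annotated gene, and 4 overlap a protein-coding gene on the opposite strand. Ccne2 shares 5622 bp with Ints8, which had 772 to 1095 counts against 88.9 to 144 for Ccne2. Mcm7 shares 421 bp with Ap4m1 and 64 bp with Cops6, Ccna2 shares 863 bp with Exosc9, and Cdc20 shares 53 bp with Elovl1. Cdt1 lies wholly within Gm20388 on the same strand, whose counts were 328, 263 and 0 in replicates 1, 2 and 3, so the split between both genes is uncertain. The microRNA genes inside Mcm7 (Mir25, Mir93 and Mir106b) had no counts in the gene tables.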

How the data were processed

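Ribosome-depleted chromatin RNA of 3 libraries in 1 group was quantified by the authors on annotation M21 of assembly mm10, per the file headers and the text listing of each library, with no pooling. The authors deposited expected counts and TPM per gene and isoform in a layout like that of RSEM, and estimated counts and TPM per transcript in a layout like that of kallisto. The authors also deposited posterior mean TPM, used as an alternative, and a signal pair, the bounds of a TPM interval, of which no use was made. The tools, their versions and any use of strand were not given in the sources used here. All 55536 gene identifiers matched GENCODE M21 on GRCm38, and 96 ERCC and 26248 numeric entries were left out of tests. TPM is scaled over all entries, so the share of small RNAs moves every gene, and deposited TPM was therefore rescaled over 22028 protein-coding genes. Exon-based counting takes intronic reads only where an annotated isoform covers them, and reads within exons do not tell unspliced from spliced RNA. The gene tables are those in the RSEM layout.

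A slope on log2 starting RNA was fitted to rounded expected counts in edgeR 4.0.16 under R 4.3.3, after filterByExpr and with TMM factors. Each gene has 1 residual degree of freedom there, and its spread was estimated in part from other genes. Tested on simulated data of 15065 genes in 3 libraries, the fit made 0 calls without slopes, and recovered 77% of slopes of 1 and 100% of slopes of 2, with 7 other calls. Slopes were simulated only in the more abundant genes and with the same spread for every gene. Recovery was not measured for low-count members or for slopes as small as theirs. The coefficient of variation of a gene is the tagwise value of edgeR. Differences of list medians used log2(coding TPM + 0.1) and an exact sign-flip test over libraries. Alternatives were DESeq2 1.42.0 and its size factors, other scales, pseudocounts, limits, tables and lists, and each replicate left out. The members and gene lists were chosen with earlier results of these data known. Beside the members, the 3 highest genes and the lowest of each other list, and genes overlapping or copied from a member, could be named. Spi1, other markers named at 0, and single isoforms were chosen after their values were seen. Promoter windows came from RefSeq. Python 3.11.15, pandas 2.3.3, numpy 2.4.6, scipy 1.17.1 and matplotlib 3.10.9 were used.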

Additional observations from a re-analysis of the deposited data

How the results depend on the processing

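The replication minus mitosis difference was positive under all 14 alternatives, which are not independent checks. It ran from 0.37 with members of at least 50 counts to 1.35 with strict lists of 12 replication and 14 mitosis genes. The limit of 50 counts was chosen after seeing the data, as was leaving out Mki67 and Pcna. Leaving out a replicate gave 0.91 to 1.03 and could not turn the difference negative, because it was positive in every library. A limit of 1 coding TPM in the mean kept all 35 members and so repeated the main value. With 3 libraries the exact sign-flip p of the difference cannot pass 0.05, so only its size and sign could be compared. Members at or above the limit in every library numbered 19 with TPM as deposited, 21 with a limit of 5 coding TPM, and 34 to 35 with each replicate left out. The members' median was 1.64 in TPM as deposited, 10.8 coding TPM in the kallisto-layout tables, 11.8 with posterior mean TPM, and 7.81 to 8.95 coding TPM with each replicate left out. The median isoform share was 17.6% of expected counts, and 45.3% to 47.9% with each replicate left out. The slope on starting RNA called 1 member and 284 genes with no filter on low counts, and 1 member and 160 genes among protein-coding genes alone. Both calls were Cenpf, whose adjusted p was 0.00626 and 0.0274 in these edgeR fits and 0.0727 to 0.227 in the others. Genes called numbered 128 with DESeq2's size factors and 86 with DESeq2. The cause was not tested. The members' median coefficient of variation was 20.9% to 25.9% with each replicate left out. With 2 libraries the slope has no residual degrees of freedom, so it was not fitted without a replicate. No paired analysis was possible because there is 1 group. Groups of 3 libraries are too small for a test of single outlying samples. Counting error limits the low members, above all Cdc20, Ccnb2, Rrm2 and Ccnb1.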
